A study of Mus musculus with 3 samples.

Results

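The 7 genes of the Eya family and the sine oculis homeobox family examined here for LMX1B occupancy in the embryonic mouse limb were Eya1, Eya2, Eya3, Eya4, Six2, Six4 and Six5. Their members in the data were the chromatin immunoprecipitation (ChIP-seq) intervals, also called peaks, whose midpoint lay in the domain of one of the 7 genes. A domain was the gene body on mm10 with its flanks on both sides, each reaching as far as the neighbouring protein-coding gene and no farther than 1 Mb. The 7 domains held 13 of 4501 intervals of the validation ChIP and 5 of 1287 intervals of the first ChIP. LMX1B was precipitated with the polyclonal antibody BMO8 in both, from frozen limb buds of mouse embryos of strain C57BL/6, taken at embryonic day 12.5. Buds of both limb pairs were pooled, 48 per run in 2 runs. The track name marks the limb buds of the first ChIP as wild-type and gives no genotype for the validation ChIP. The labels describe the input DNA as pooled chromatin of WT and mutant limb buds, and it was not analysed here. Each ChIP was a single sample, so no test over replicates was possible and no p-value is given. In pooled limb buds, occupancy in few cells and weak occupancy in many cells cannot be told apart. The interval lists carry no expression values, so whether the 7 genes mark connective tissue in these limb buds was not checked.

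LMX1B is a LIM homeodomain transcription factor that gives limb mesenchyme its dorsal character. The sine oculis homeobox proteins, among them Six2, Six4 and Six5, bind DNA through a homeodomain. Eya proteins are coactivators and phosphatases without a DNA-binding domain of their own, which sine oculis proteins bring to target genes. With Pax and Dach proteins they form a network that acts in organ, muscle and sensory development. In the mouse limb, Eya1, Eya2 and Six2 are known from connective tissue and tendon precursors.

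Sequence was available for windows around start sites, from 250 bases before a start to 50 bases after it (RefSeq, assembly GRCm38.p6, the same coordinates as mm10). Of the 7 genes, 5 had such windows, 7 in all: Eya3, Eya4, Six2, Six4 and Six5. No interval of either list overlapped any of these 7 windows. Of 32851 windows in the table, 1.43% were overlapped by a validation interval and 0.813% by a first-ChIP interval. A single interval of the 7 domains touched any listed start window, that of the long non-coding RNA Gm35291 in the Eya4 domain. Eya1 and Eya2 had no window, so overlap with their start sites could not be read. The window of Gm35291 is shown with the 9 bases inside the validation interval in capitals. The window of Six2 is shown because Six2 alone of these 5 genes had an interval listed in both ChIPs. One Six4 window is shown because it held the only motif match in the 7 windows, in capitals.
Gm35291 (chr10:23711438-23711737, minus strand): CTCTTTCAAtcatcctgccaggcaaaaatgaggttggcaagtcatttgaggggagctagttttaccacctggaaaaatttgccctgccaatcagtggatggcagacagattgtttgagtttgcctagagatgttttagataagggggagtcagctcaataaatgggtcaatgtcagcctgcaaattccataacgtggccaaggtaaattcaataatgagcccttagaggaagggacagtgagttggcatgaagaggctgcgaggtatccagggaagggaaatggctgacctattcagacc
Six2 (chr17:85688205-85688504, minus strand): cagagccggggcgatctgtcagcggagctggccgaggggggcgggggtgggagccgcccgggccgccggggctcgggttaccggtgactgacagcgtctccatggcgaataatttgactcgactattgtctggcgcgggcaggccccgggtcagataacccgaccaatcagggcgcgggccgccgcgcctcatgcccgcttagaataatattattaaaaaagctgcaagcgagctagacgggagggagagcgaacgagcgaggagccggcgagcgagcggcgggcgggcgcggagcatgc
Six4 (chr12:73113196-73113495, minus strand): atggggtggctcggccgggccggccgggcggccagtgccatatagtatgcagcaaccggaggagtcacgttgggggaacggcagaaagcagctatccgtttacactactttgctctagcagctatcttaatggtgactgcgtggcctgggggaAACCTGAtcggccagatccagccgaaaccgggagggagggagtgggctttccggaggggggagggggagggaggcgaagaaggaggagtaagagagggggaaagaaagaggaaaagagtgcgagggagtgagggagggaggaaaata
The motifs searched on both strands were TAATTA, a homeodomain core, TTAATTA, which contains it, TCAGGTT, a site type bound by sine oculis proteins, and CAGCTG, an E-box. TCAGGTT matched the minus-strand Six4 window in reverse complement at position 154 from its 5′ end, and 4.07% of all 32851 windows held it. TAATTA was in none of the 7 windows and in 5.29% of all, TTAATTA in none and in 3.07%, and CAGCTG in none and in 16.3%. A match here is a run of letters and not a shown site.

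Intervals of both ChIPs lay in the domains of Eya1, Eya2 and Six2. The domains of Eya4 and Six4 held intervals of the validation ChIP alone, and those of Eya3 and Six5 held none. A domain held a validation interval for 5 of the 7 genes, against 15.0% of 21887 protein-coding genes. For 3 of the 7 it held a first-ChIP interval, against 6.00% of protein-coding genes. The same 3 genes had a shared interval, that is, a first-ChIP interval that overlapped a validation interval by at least 1 bp, against 3.39%. With 50 kb around each gene in place of the domain, 6 validation and 2 shared intervals were counted, against 13 and 4 in the domains. The genes holding them differed: within 50 kb, Eya4 and Six2 had 0 validation intervals, Six4 had 2 and Six5 had 1. Domain length bears on these counts, since a longer domain can hold more intervals. The domains of Eya1, Eya4, Six2 and Eya2 were over 250 kb, a limit set after the values had been seen. All 4 held a validation interval and 3 held a shared one, against 43.9% and 13.5% of the 3869 protein-coding genes with domains of at least 250 kb. A first-ChIP interval was held by 3 of the 4, against 19.0%. Of the 3 genes with shorter domains, 1 held a validation interval and none a first-ChIP or shared one, against 8.77%, 3.21% and 1.22% of 18018 genes.

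**Figure D1:**
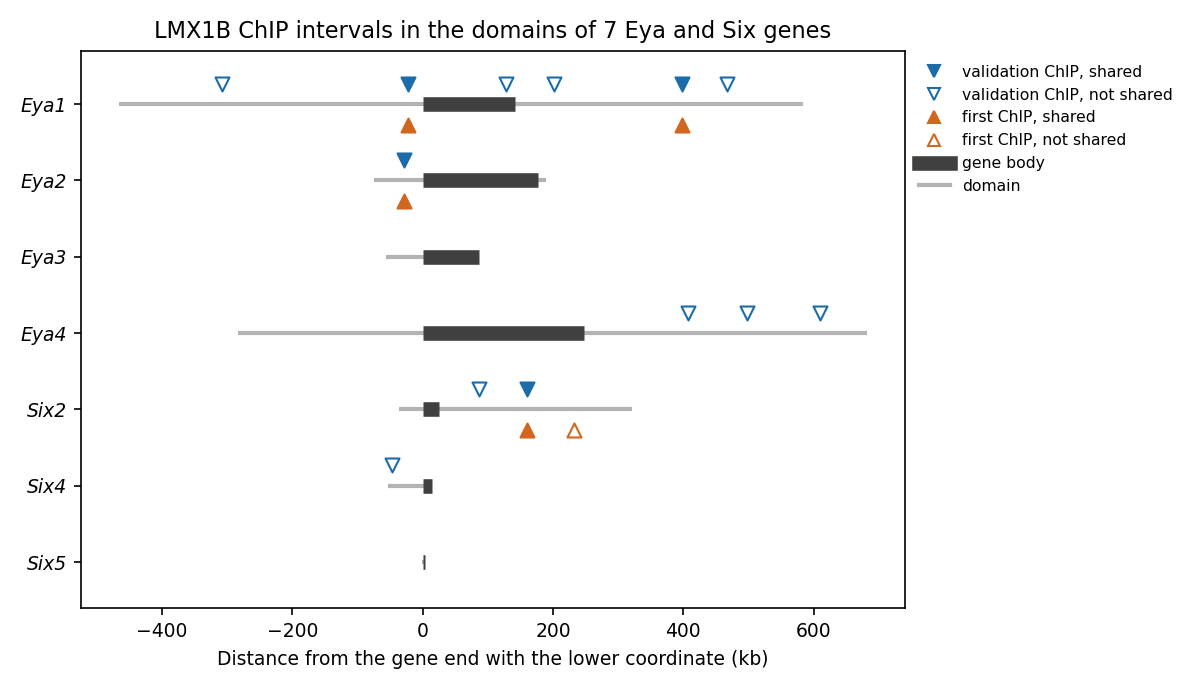
Map of the 7 domains, to scale, with the distance in kb from the end of the gene with the lower coordinate on the x axis and 1 row per gene. Triangles are interval midpoints, pointing down for the validation ChIP and up for the first ChIP, filled where shared. Filled triangles are seen at Eya1, Eya2 and Six2, and all but 1 of the triangles lie outside the gene bodies.

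Eya1, a coactivator needed for ear, kidney and branchial arch development, had the most intervals. Its body of 142 kb lies on chromosome 1 at 14168953 to 14311035, in a domain of 1051 kb between Xkr9 and Msc, which encodes the basic helix-loop-helix repressor musculin. Just 3.5% of protein-coding genes had a longer domain. The 6 validation intervals spanned 774 kb from the first midpoint to the last, and neighbouring midpoints were at least 68.5 kb apart. As many validation intervals or more were held by 186 (0.85%) of 21887 protein-coding domains, and 2 or more shared first-ChIP intervals, the number for Eya1, by 174 (0.795%).

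The shared interval nearest to Eya1 lay at 14145811 to 14146522 in the validation ChIP, with a summit score of 20, and at 14146043 to 14146384 in the first ChIP, with a score of 22. It was 22.8 kb below the lower end of the gene by the validation midpoint and 4.78 kb from the long non-coding RNA Gm39596. The deposited score has no stated unit and is read only within its own list: 92.5% of validation intervals and 62.5% of first-ChIP intervals scored lower. The other shared interval lay at 14566959 to 14567721 in the validation ChIP, with a score of 18, and at 14567026 to 14567308 in the first ChIP, with a score of 16. In the validation list 89.0% of intervals scored lower, while in the first-ChIP list 6.14% did. This interval was 186 kb from Msc and 256 kb from Eya1, so it was nearer to the neighbour than to Eya1.

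The 4 remaining validation intervals of the Eya1 domain had no counterpart in the first ChIP. Among them was the one with the highest score of all 13, at 13860984 to 13861765. Its score of 23 was reached by 204 of 4501 validation intervals. It lay in the body of the long non-coding RNA Gm31195, 159 kb from Xkr9 and 308 kb from Eya1. The interval at 14296767 to 14297248, with a score of 10, was the only one of either list inside the body of any of the 7 genes, 14.0 kb from the upper end of Eya1. Whether it is exonic or intronic was not resolved, since the gene table has no exons. Above the gene, the interval at 14370295 to 14370859 scored 11 and lay 59.5 kb away. The one at 14635541 to 14636064 scored 9, lay 325 kb from Eya1 and was 118 kb from Msc. Thus 3 of the 6 intervals were nearer to a bounding gene than to Eya1.

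Eya2, a close relative of Eya1, had 1 interval in each list, and these overlapped. The gene body spans 177 kb on chromosome 2 at 165595028 to 165771727, in a domain of 264 kb between Slc2a10, which encodes a glucose transporter, and Zmynd8. The validation interval lay at 165566800 to 165567245 with a score of 10, and the first-ChIP interval at 165566749 to 165567177 with a score of 22. Of the validation list 24.0% scored lower and 18.4% had the same score, so the interval was in the lower part of that list. In the first-ChIP list 62.5% scored lower. The pair was 28.0 kb below Eya2 by the validation midpoint and 47.1 kb from Slc2a10, outside any gene of the table. No other interval of either list lay within 300 kb of the domain: the next validation intervals were 343 kb below it, in Cdh22, and 368 kb above it, in Sulf2.

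Eya3, the most broadly expressed member of the family, held neither a validation nor a first-ChIP interval in its domain of 142 kb on chromosome 4. The gene lies at 132639025 to 132724765, and its neighbour Xkr8 follows after 0.135 kb. The nearest validation interval was 124 kb below the gene, at 132514682 to 132515026, with a score of 11. The nearest first-ChIP interval was 613 kb below it, in Epb41. A domain without an interval does not show that LMX1B is absent there, since the peak threshold and the depth of the libraries are not known here.

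Eya4, linked to hearing loss in people, had a domain almost as long as that of Eya1 but no first-ChIP interval. The gene lies on chromosome 10 at 23102962 to 23350838, and the domain of 965 kb runs from Tcf21, which encodes a basic helix-loop-helix factor of mesenchyme, to the ribosomal protein gene Rps12. Its 3 validation intervals all lay above the gene, 161, 251 and 362 kb from the nearest listed start site. They were at 23510698 to 23511237 (score 11), 23600723 to 23601038 (score 11) and 23711729 to 23712558 (score 14). The last, with 73.8% of the validation list below it, was 73.0 kb from Rps12 and is the one that touched the Gm35291 window. Of the 3, 2 were nearer to Rps12 than to Eya4. The nearest first-ChIP interval lay 954 kb below the gene, in E030030I06Rik. Of protein-coding genes, 687 (3.14%) had at least 3 validation intervals.

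Six2, a homeodomain factor that maintains nephron progenitors in the kidney, had 2 intervals in each list, of which 1 pair was shared. The gene body spans 25.5 kb on chromosome 17 at 85662736 to 85688254, and its domain of 358 kb lies between Six3 and Srbd1. The shared pair lay at 85823107 to 85823949 in the validation ChIP, with a score of 15, and at 85822969 to 85823623 in the first ChIP, with a score of 22. Of the validation list 79.2% scored lower, and of the first-ChIP list 62.5%. The pair was 135 kb above Six2 and 161 kb below Srbd1 by the validation midpoint, 2.13 kb from the long non-coding RNA Gm4718. The table places the Six2 start site at the upper end of the gene, which is the end nearer to this pair. A validation interval at 85748528 to 85749008, with a score of 10, lay 60.5 kb from that start site and was not shared. A first-ChIP interval at 85895390 to 85895734, with a score of 16, lay in the long non-coding RNA Gm30117, was not shared and was nearer to Srbd1 (89.1 kb) than to Six2 (207 kb). No interval lay between Six2 and Six3, which are 36.5 kb apart. Just outside the domain, the next validation interval was 51.5 kb beyond its upper edge, in Srbd1, with a score of 8.

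Six4, a homeodomain factor that acts in muscle development, had 1 validation interval and no first-ChIP interval. The gene lies on chromosome 12 at 73099609 to 73114031, and its upper end is covered by the body of Mnat1 (73112185 to 73273988), where the domain stops. The validation interval at 73051761 to 73052430 scored 10 and lay 47.5 kb below Six4. It was not shared, and 24.0% of the validation list scored lower. Mnat1, which encodes a subunit of the CDK-activating kinase, held 3 validation and 2 first-ChIP intervals in its body, and both first-ChIP intervals were shared. The shared pair nearer to Six4 was 119 kb above it, with a validation score of 14 and a first-ChIP score of 25. The farther one, 156 kb above it, had a validation score of 16 and a first-ChIP score of 23. With a domain that looks past overlapping genes, the nearer of these pairs counts for Six4, and 4 of the 7 genes have a shared interval.

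Six5, a homeodomain gene beside the myotonic dystrophy gene Dmpk, had an empty domain, of 4.73 kb on chromosome 7. The gene lies at 19094544 to 19098549, with Dmpk 0.722 kb below it and its upper end covered by Bhmg1. Of protein-coding genes, 97.3% had a longer domain, so the empty domain says little. The nearest validation interval lay 21.1 kb above Six5 at 19119274 to 19120034, with a score of 12, and overlapped the start window of Fbxo46. The nearest first-ChIP interval was 9072 kb away, in Fbl.

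The scores of the 13 validation intervals ran from 9 to 23 with a median of 11, against 11 for the other 4488 intervals of that list. The 5 first-ChIP intervals scored 16, 16, 22, 22 and 22, with a median of 22, against 20 for the other 1282. The highest scores of the whole lists were 55 in the validation list and 86 in the first-ChIP list. The 4 shared validation intervals scored 10 to 20 and the 9 unshared ones 9 to 23, so these ranges overlapped. Of the 13 validation intervals 30.8% were shared (95% Wilson interval 12.7 to 57.6), against 15.5% (14.5 to 16.6) of the rest of the list. Of the 5 first-ChIP intervals 80.0% were shared (37.6 to 96.4), against 54.8% (52.1 to 57.5). At these numbers the Wilson limits, which cover counting error only, include the share in the rest of each list. The deposited Active Regions numbered 735, each identical to a first-ChIP interval. They list these 4 shared intervals, as they list all 707 shared ones, and 28 of the 580 unshared ones. The unshared one in the Six2 domain is not among them.

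**Figure D2:**
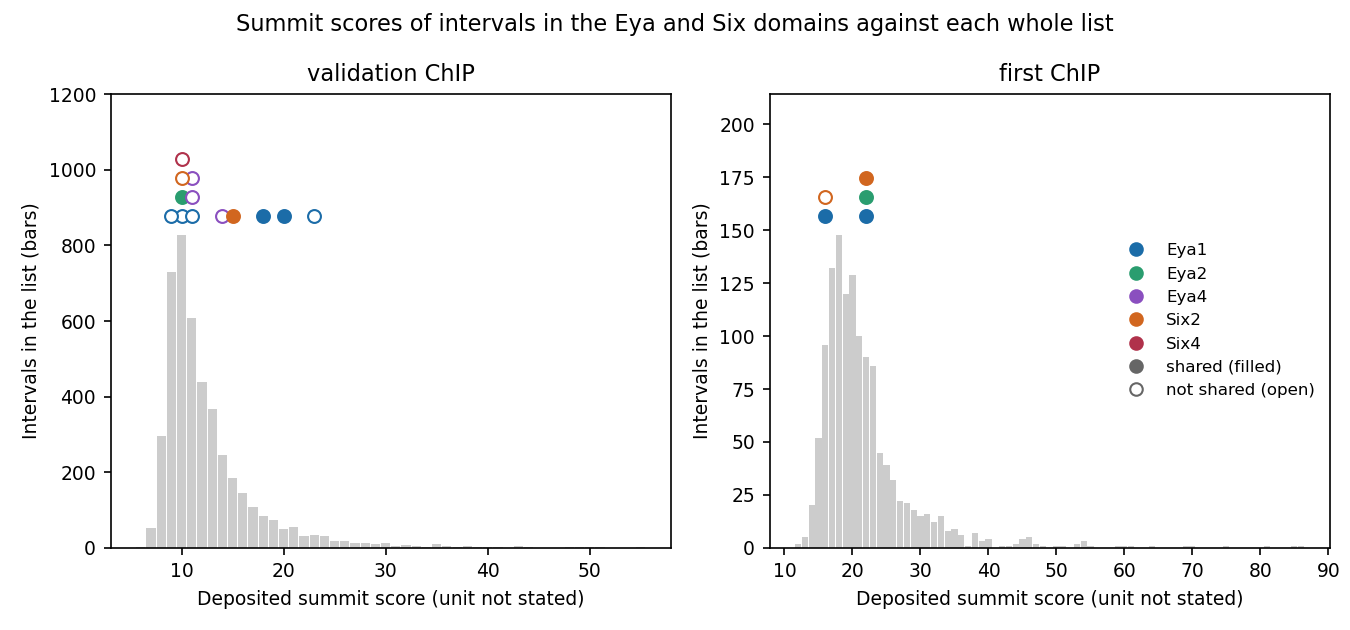
Number of intervals (y axis) at each deposited summit score (x axis, unit not stated) in the validation ChIP and the first ChIP, as grey bars. Dots mark the intervals of the 7 domains, coloured by gene, filled where shared, and stacked where scores tie, with no meaning to their height. The dots lie at 9 to 23 in the validation ChIP and at 16 to 22 in the first ChIP, while the bars reach 55 and 86.

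The 4 shared pairs were compared in position. Summits of the validation and first ChIP were 96 and 64 bp apart in the Eya1 domain. They were 16 bp apart in the Eya2 domain and 64 bp apart in the Six2 domain. The median of 64 bp equals that of all 707 shared pairs, of which 74.0% had summits within 100 bp. Both first-ChIP intervals of the Eya1 domain, 342 and 283 bp wide, lay wholly inside validation intervals of 712 and 763 bp. They covered 48.0% and 37.1% of these. Where the overlap had to cover 50% of each interval, these 2 pairs were no longer shared. The Eya2 pair, 446 bp wide in the validation and 429 bp in the first ChIP, overlapped by 378 bp, which is 84.8% of the validation interval and 88.1% of the first-ChIP interval. The Six2 pair, 843 and 655 bp wide in the same order, overlapped by 517 bp, or 61.3% and 78.9%.

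**Figure D3:**
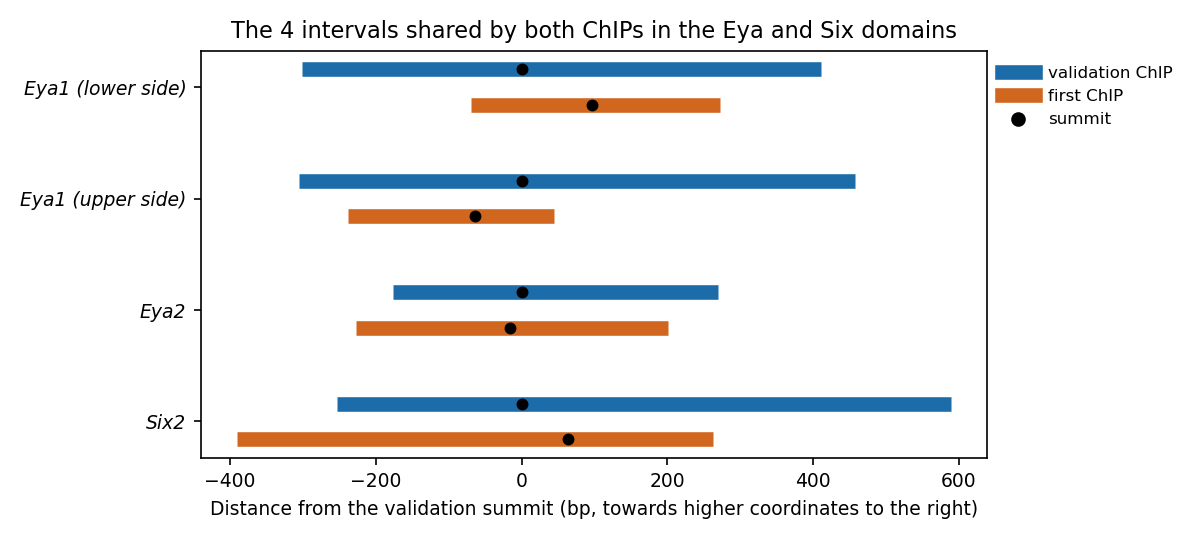
Extent of the 4 shared pairs in bp from the validation summit (x axis), with the validation interval above the first-ChIP interval and summits as black dots. First-ChIP summits lie 16 to 96 bp from the validation summit, on either side of it.

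Relative to the length of the domains, intervals were dense around these genes. The 7 domains cover 2.85 Mb and held 4.56 validation intervals per Mb (exact 95% Poisson interval 2.43 to 7.79), against 1.69 (1.64 to 1.74) over all protein-coding domains. The first ChIP had 1.75 per Mb (0.569 to 4.09), against 0.482 (0.456 to 0.509). Shared intervals numbered 1.40 per Mb (0.382 to 3.59), against 0.264 (0.245 to 0.284). Members were chosen with earlier results of these lists known, so the higher values describe these genes and support nothing further.

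**Figure D4:**
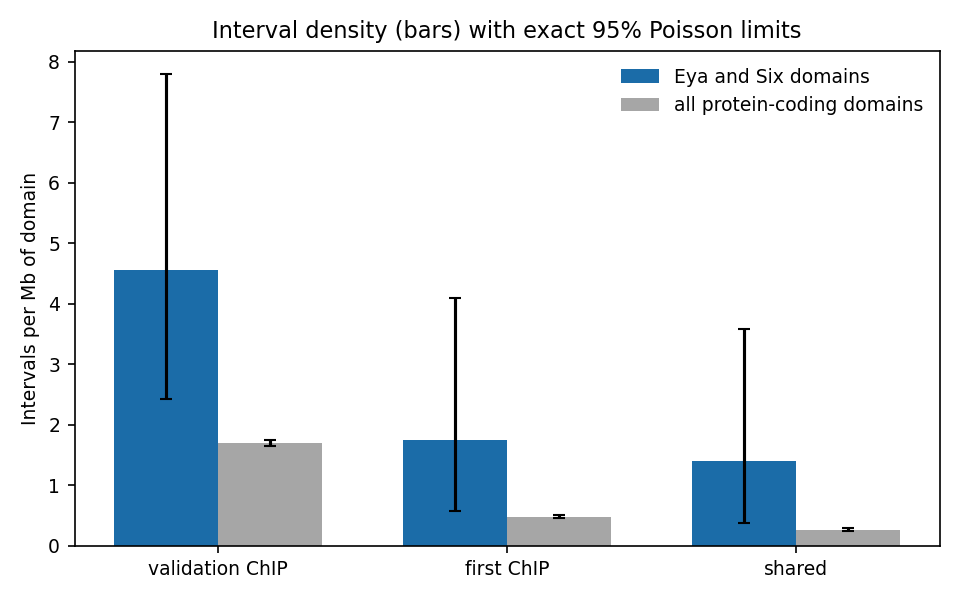
Intervals per Mb of domain (y axis) for the validation ChIP, the first ChIP and shared intervals, in the 7 domains and in all protein-coding domains. Error bars are exact 95% Poisson limits for counting error. They give no test of the difference, since the genes were chosen with earlier results of these lists known.

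The intervals lay outside the gene bodies more than in them, and the flanks were also the longer part. The flanks of the 7 genes, 2.16 Mb in all, held 12 validation intervals (5.56 per Mb, 2.87 to 9.72) and 5 first-ChIP intervals (2.32 per Mb, 0.753 to 5.41). The bodies, 0.696 Mb in all, held 1 validation interval (1.44 per Mb, 0.0364 to 8.001) and no first-ChIP interval, for which a count of 0 allows up to 5.30 per Mb. The Poisson intervals of flanks and bodies overlap. Over all protein-coding genes the validation density was 1.56 per Mb in flanks and 1.89 per Mb in bodies. For the first ChIP it was 0.415 per Mb in flanks and 0.586 per Mb in bodies. Of the whole lists, 43.3% of validation and 47.0% of first-ChIP midpoints lay in a protein-coding gene body. Midpoints of the 13 validation intervals were 14.0 to 361 kb from the nearer end of the gene, with a median of 135 kb, and 4 were within 50 kb. Of the 13, 6 were nearer to a bounding gene than to the member gene, as were 2 of the 5 first-ChIP intervals. These distances were not set against those in other domains, so whether they are usual is not shown. Which gene an interval acts on, if any, is not shown by position.

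**Figure D5:**
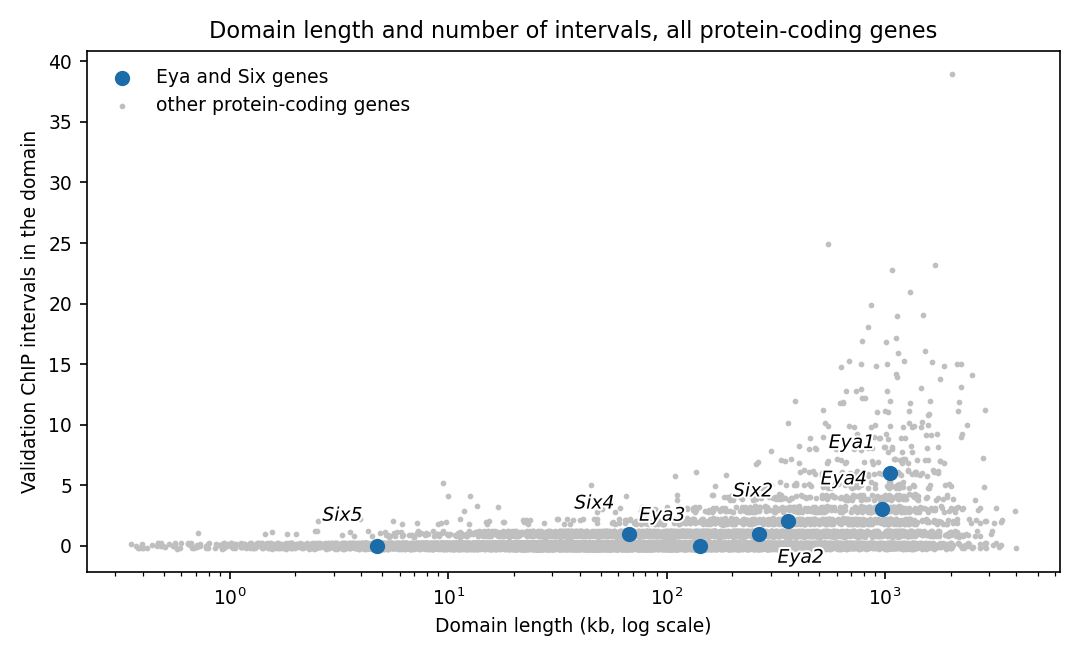
Validation ChIP intervals per domain (y axis, grey points spread slightly to separate ties) against domain length in kb (x axis, log scale) for 21887 protein-coding genes, with the 7 genes in blue. Eya1 has 6 intervals in 1051 kb and Eya4 has 3 in 965 kb, while Eya3 and Six5 stand at 0.

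Other genes of the network were read from a list of 29 genes: Pax and Dach genes, Six3 and Six6, cofactors, and target genes of muscle and kidney. A validation interval lay in the domain of 15 of the 29, a first-ChIP interval in 7 and a shared interval in 6, against the 15.0%, 6.00% and 3.39% of all protein-coding genes given above. The median domain of the 29 was 252 kb, against 67.2 kb for all protein-coding genes. Among protein-coding genes with domains of at least 250 kb, these shares were 43.9%, 19.0% and 13.5%. Among those with domains under 250 kb they were 8.77%, 3.21% and 1.22%. The 29 genes fall in both length classes and were not split by length here. Of the 7 Pax genes on the list, 5 had 1 validation interval each and none a first-ChIP interval. Their domains were 847 kb (Pax1), 342 kb (Pax2), 700 kb (Pax3), 299 kb (Pax6) and 99.3 kb (Pax9). The domains of Pax7 and Pax8, 292 and 194 kb, were empty. Six6 had 1 validation interval and Six3 none, and neither had a first-ChIP interval. The 6 genes with a shared interval were Dach1 and Tle1 to Tle5, the 5 listed members of the Groucho family. This family includes co-repressors that sine oculis proteins can recruit. The domains of Dach1, Tle1, Tle3 and Tle4 were long, at 2248, 1093, 1033 and 1678 kb. Those of Tle2 and Tle5, 26.2 and 29.6 kb, held the same interval. Whether the counts exceed what domain length gives was not tested.

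Dach1, which encodes a nuclear cofactor in the same network, had 9 validation and 2 shared intervals in a domain of 2248 kb. The one at 97086289 to 97087163 on chromosome 14 had a validation score of 43 and a first-ChIP score of 32, and lay 700 kb from Dach1. The other had a validation score of 19 and a first-ChIP score of 25, 663 kb away on the opposite side. Tle3 had 3 shared intervals, of which the nearest (chromosome 9, 61370000 to 61371205) was 1.72 kb from a gene end by the validation midpoint and scored 31 in the validation list and 28 in the first-ChIP list. Tle1 had 2, one of them at a gene end, which lay between the validation midpoint, 0.13 kb outside the gene, and the first-ChIP midpoint, 0.126 kb inside it, with scores of 13 and 19 in the same order. Tle4 had 1, also at a gene end, with the validation midpoint 0.005 kb inside the gene and the first-ChIP midpoint 0.118 kb outside it, and scores of 16 and 22. Tle2 and Tle5, listed under its older name Aes, are neighbours on chromosome 10 and shared 1 interval at 81570555 to 81572063, with scores of 21 and 17. The muscle regulators Myf5, Myf6, Myod1 and Myog had no interval of either list in their domains of 67.7, 27.4, 84.8 and 61.3 kb. Of protein-coding genes with domains under 250 kb, 8.77% held a validation and 3.21% a first-ChIP interval, so these empty domains say little.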

How the data were processed

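LMX1B ChIP-seq of pooled limb buds was deposited as interval and summit tracks for 2 ChIP samples, 1 sample each. Per the labels' protocols, tissue was fixed with 1% formaldehyde for 15 min, chromatin was sheared to 300 to 500 bp, and 30 µg was precipitated with 20 µl of antibody. The submitters' processing notes name BWA and mm10. For the peak caller and its threshold, the sources used here give nothing. The score per summit was deposited by the authors as a whole number with no stated unit or normalization. Depth is unknown, since the lists hold no read counts, and limits given cover counting error only. Tracks were tied to samples by name. The first ChIP was read from its copy in the validation file: all 1287 intervals match its own file, and the 1 summit that differs lies in no domain examined.

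Gene bodies came from RefSeq (GRCm38.p6), which has 21887 protein-coding genes on the autosomes, X and Y. A gene body that covers an end of a gene stops its domain there. Intervals were placed by midpoint, and distances run to the nearer gene end. Starts in lists were shifted to count from 1. Wilson and exact Poisson limits were computed with scipy 1.17.1, and tables were handled with pandas 2.3.3. The domain and overlap functions were tested on simulated data. The genes and the list of network genes were chosen with earlier results of these data known. The genes named were set by rule: all 7 genes, every interval in their domains, the nearest interval outside an empty domain, bounding genes, and network genes with a shared interval. Of 30 network genes planned, 29 are given, and 1 is not reported here. Mnat1, Fbxo46 and Gm35291 with their intervals, Pax genes and muscle genes were named after their values had been seen. Beyond the rule, some nearest intervals outside the occupied Eya2, Eya4 and Six2 domains are given. Those outside the Eya1 domain are not. Sequences around summits were planned and not read, since no genome sequence was used here. Other overlap rules, scores and domains were tried as alternatives.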

Additional observations from a re-analysis of the deposited data

How the results depend on the processing

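Of 83 values for the main counts, shares and densities recomputed under 8 settings, 62 stayed within 1.5-fold or within their counting limits. Gene bodies alone leave out the flanks, which held most of these intervals. With them, 1 gene had a validation interval and 0 had a first-ChIP or a shared one. Bodies then held 1 validation interval, of which 0% was shared, and 0 first-ChIP and 0 shared intervals, at 1.44, 0 and 0 per Mb, and 1 other network gene had a shared interval. With 50 kb around each gene there were 6 validation, 2 first-ChIP and 2 shared intervals, and 100% of the first-ChIP intervals were shared. With domains of at most 250 kb on each side there were 8 validation intervals. With intervals at or above the median score of their list, 3 genes had a validation interval, and 8 validation, 3 first-ChIP and 2 shared intervals remained; the shared pairs of Eya2 and the farther one of Eya1 were lost. Where the overlap had to cover 50% of each interval, 2 pairs were shared, those of Eya2 and Six2. A domain that looks past overlapping genes, chosen after seeing the data, gave Six4 3 validation intervals and 1 shared interval. These changes follow from fewer or other intervals, or other lengths, being counted. No paired analysis was possible because each ChIP is 1 sample. The peak threshold and depth of both lists are unknown, so an interval missing from a list cannot be told apart from one just under its threshold.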
